A study of Homo sapiens with 12 samples.

Results

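The genes described here are 10 transcripts of iron transport and hepcidin control, namely TF, TFRC, TFR2, FTH1, FTL, SLC40A1, HAMP, HJV, BMP6 and HFE. They were taken by symbol from the 61806 gene IDs of the deposited count table, and all 10 were found. The libraries are poly(A) RNA-seq libraries of liver cancer lines in 4 groups of 3, and each group changes or controls CD146, a cell surface adhesion molecule encoded by MCAM. Libraries labelled Hep3B carried a Tet-on inducible CD146 shRNA or a Tet-on inducible control shRNA and were grown in DMEM with serum. HepG2 cells received a CD146 overexpression vector or the pLVX vector alone and were grown in MEM with serum and pyruvate. The inducer, its dose and the time of induction are not given in the sources used here. Replicates are numbered 1 to 3 without a statement that they are separate cultures or, for the shRNA groups, the same hairpin, so the p-values speak only of how far these libraries spread, and that spread may be technical. The line, the medium and the way CD146 was changed differ together between HepG2 and the Hep3B label, and they cannot be told apart.

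Iron travels in plasma bound to transferrin (TF), enters cells through transferrin receptor 1 (TFRC) and is stored inside the ferritin shell, which is built from heavy (FTH1) and light (FTL) subunits. Its only known cellular exporter is ferroportin (SLC40A1), and the liver hormone hepcidin (HAMP) binds ferroportin and has it degraded. Hepatocytes set HAMP transcription through BMP ligands such as BMP6, the co-receptor hemojuvelin (HJV), and the iron sensing proteins HFE and transferrin receptor 2 (TFR2). Inside the cell, iron regulatory proteins bind stem-loops called iron responsive elements, which block translation from a 5′ UTR and stabilise the mRNA from a 3′ UTR.

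These elements are shown first because they connect the members whose levels follow. A search of the GENCODE v29 transcripts (GRCh38) looked for a C bulge, 5 bases, a CAGTGN loop and 5 bases that pair with the first 5, with G-T pairs allowed, on the transcript strand. It found matches in 5 of the 10 members and in 290 of 19659 protein-coding genes (1.48%). Capitals mark the bulged C and the 6 loop bases.
FTH1, 5′ UTR, chr11:61967574-61967602, minus strand: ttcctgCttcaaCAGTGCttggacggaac
FTL, 5′ UTR, chr19:48965335-48965363, plus strand: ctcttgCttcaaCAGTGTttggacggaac
SLC40A1, 5′ UTR, chr2:189580661-189580689, minus strand: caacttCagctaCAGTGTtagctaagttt
TFRC, 3′ UTR, chr3:196050463-196050491, minus strand: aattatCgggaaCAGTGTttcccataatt
TFRC, 3′ UTR, chr3:196050979-196051007, minus strand: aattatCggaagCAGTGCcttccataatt
The 2 ferritin elements share the bases between bulge and loop and those after the loop, and the TFRC stems differ from them. TFRC held 4 matches in its 3′ UTR, of which the outer 2 are printed. TF also held 1 match, in its 3′ UTR, which is a match of letters only. No match was found in TFR2, HAMP, HJV, BMP6 or HFE.

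MCAM, the targeted gene, checked the labels. It had 20.1, 22.1 and 24.5 CPM (read counts scaled to a common library size, with TMM factors over the 12 libraries) in the CD146 shRNA libraries, against 104, 102 and 108 CPM in the control shRNA libraries. It had 2134, 2127 and 2092 CPM in the CD146 overexpression libraries, against 25.1, 25.8 and 25.8 CPM in the pLVX libraries, and the counts do not separate introduced from endogenous transcripts. Library totals ran from 12772991 to 18129816 counts, so that 3 counts, the floor used for a gene at 0, equal 0.152 to 0.266 CPM. The 8 hepatocyte markers (ALB, APOA1, APOB, TTR, SERPINA1, FGB, AHSG and AFP) summed to 652745 to 909773 counts in HepG2 libraries. In the libraries labelled Hep3B, a line derived from hepatocellular carcinoma, the same 8 markers summed to 17, 26 and 812 counts with CD146 shRNA and to 5, 12 and 8 counts with control shRNA, which goes against the label, and these are called the libraries labelled Hep3B throughout.
CD146 shRNA replicate 3 stood apart from the other 5 libraries of that label. It held 298 ALB counts and 306 APOB counts, against 0 to 5 and 1 to 6 counts in the other 5 libraries. These amounts are 0.0966% and 0.0937% of the mean HepG2 level in CPM. Over the 8 markers the share in this library ran from 0.0659% for FGB to 0.420% for TTR. TTR went the other way, with 2 counts there against 12 and 20 counts in CD146 shRNA replicates 1 and 2.

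The members fell into 2 sets by where they were present. TF, SLC40A1 and HAMP were present in HepG2 and at or near 0 counts in the libraries labelled Hep3B, apart from 103 TF counts in CD146 shRNA replicate 3, and BMP6 was the reverse. TFRC, TFR2, FTH1, FTL and HFE were present in all 4 groups, and HJV was at 0 to 3 counts in every library. In bulk libraries fewer cells that make a transcript and less of that transcript per cell cannot be told apart. Within the libraries labelled Hep3B, CD146 shRNA went with lower TFRC, TFR2, FTL, BMP6 and HFE and with higher FTH1. Within HepG2, CD146 overexpression went with higher HFE and lower FTL and FTH1, and the other 5 members tested did not pass. The FTL and FTH1 calls in HepG2 were lost under some of the alternatives given below.

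**Figure D1:**
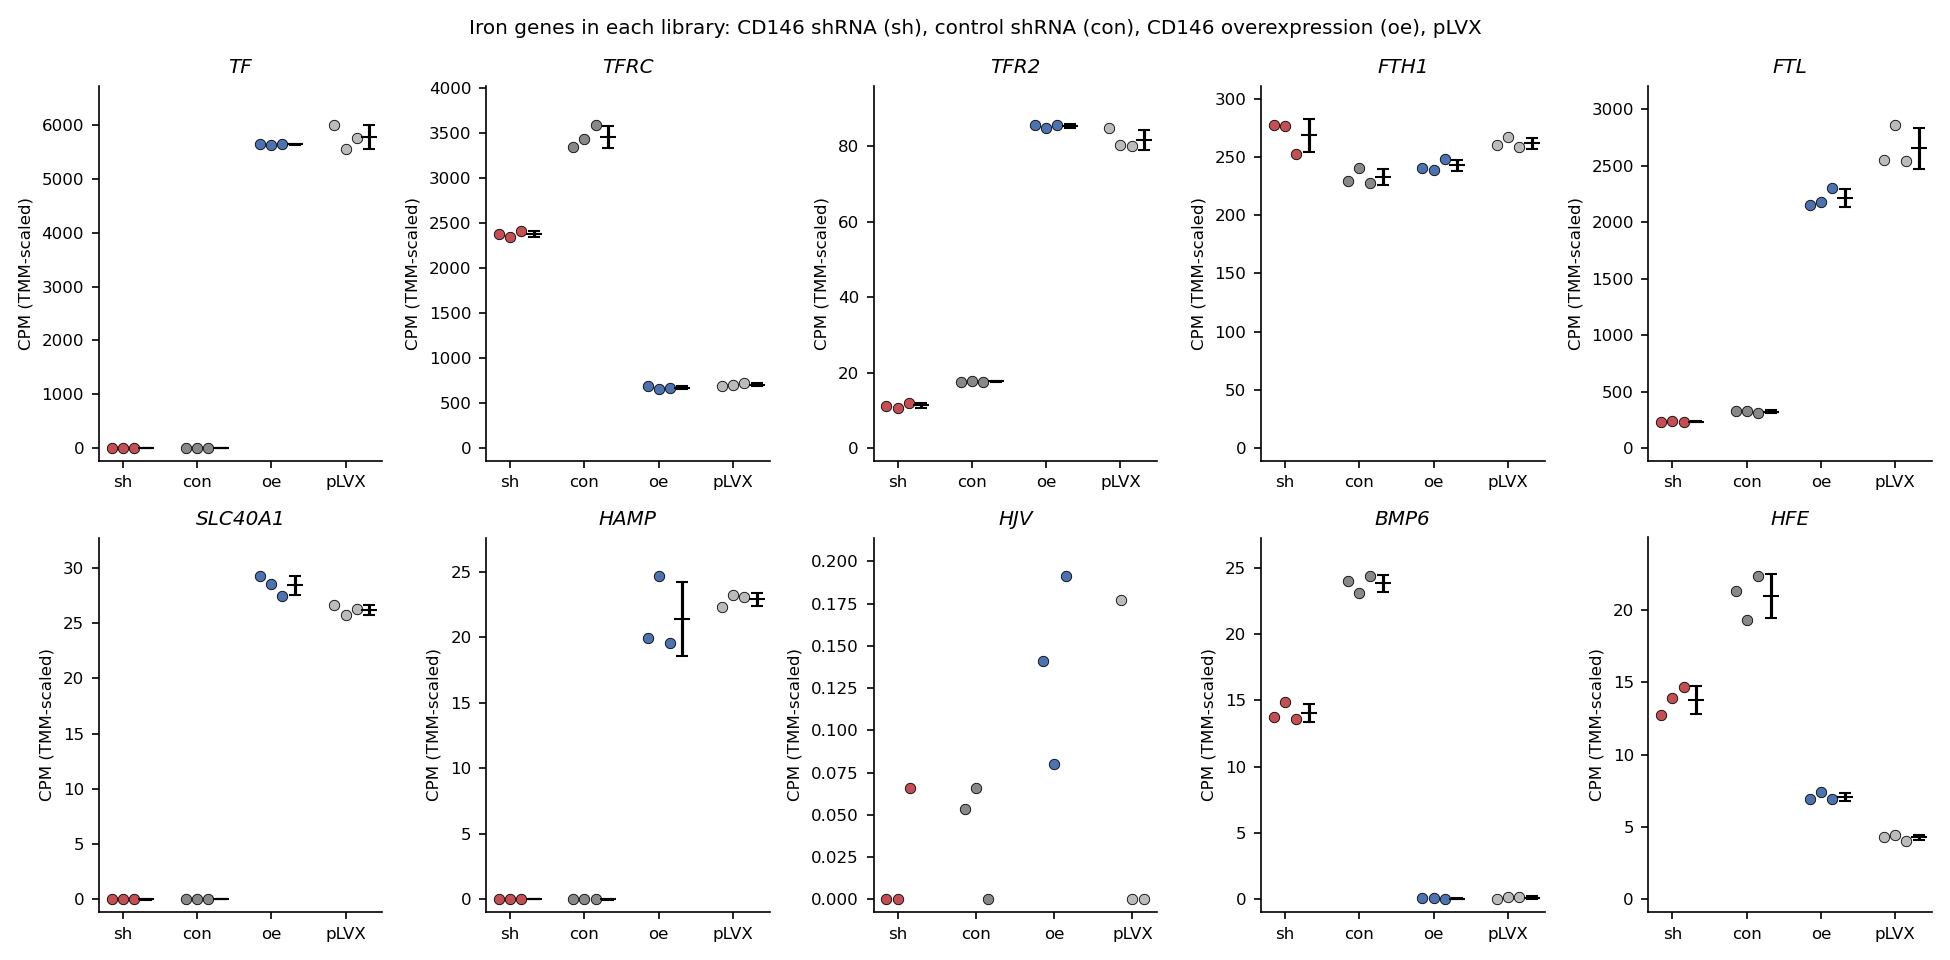
TMM-scaled CPM (y axis, linear, from 0, a scale of its own in each panel) of the 10 iron genes in each of 3 libraries of CD146 shRNA, control shRNA, CD146 overexpression and pLVX. Points are libraries and bars are mean ± SD, drawn for every gene but HJV; TF, SLC40A1 and HAMP lie on the axis in the libraries labelled Hep3B, and BMP6 does so in HepG2.

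Deposited FPKM, which divides by transcript length, allows levels of different genes to be ordered. In the CD146 shRNA libraries the order was FTL at 289 ± 7.20 FPKM, then TFRC at 148 ± 2.84 and FTH1 at 145 ± 8.34, which overlapped, then BMP6 at 4.01 ± 0.180, then HFE at 2.61 ± 0.160 and TFR2 at 2.41 ± 0.145, which also overlapped (SD, n = 3). In the control shRNA libraries FTL led at 409 ± 14.9 FPKM, ahead of TFRC at 221 ± 7.23, FTH1 at 129 ± 3.38 and BMP6 at 6.98 ± 0.215 (SD, n = 3). HFE at 4.09 ± 0.309 FPKM and TFR2 at 3.86 ± 0.0346 FPKM overlapped there too (SD, n = 3).
In deposited FPKM, TFRC and FTH1, the entry receptor and the heavy storage subunit, were thus apart in control shRNA libraries and side by side in CD146 shRNA libraries. BEST1 overlaps 62.4% of FTH1 exon bases on the other strand, and the strand setting of the counting is not given. The FTH1 FPKM may therefore be too low in every group, and its rank among the members is not settled.
HepG2 had another order. In the CD146 overexpression libraries FTL stood at 2369 ± 79.6 FPKM, TF at 202 ± 0.140, FTH1 at 113 ± 1.99, TFRC at 36.0 ± 0.910 and TFR2 at 15.7 ± 0.0557, followed by HAMP at 6.98 ± 0.939 and SLC40A1 at 6.28 ± 0.207, which overlapped, and HFE at 1.17 ± 0.0462 (SD, n = 3). In the pLVX libraries the order was FTL at 2710.0 ± 188 FPKM, TF at 197 ± 6.83, FTH1 at 116 ± 2.12, TFRC at 36.1 ± 0.911, TFR2 at 14.3 ± 0.381, HAMP at 7.11 ± 0.191, SLC40A1 at 5.52 ± 0.0808 and HFE at 0.670 ± 0.0265 (SD, n = 3), with no overlap between neighbours.
BMP6 and HJV were at or below 0.0700 FPKM in every HepG2 library.

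**Figure D2:**
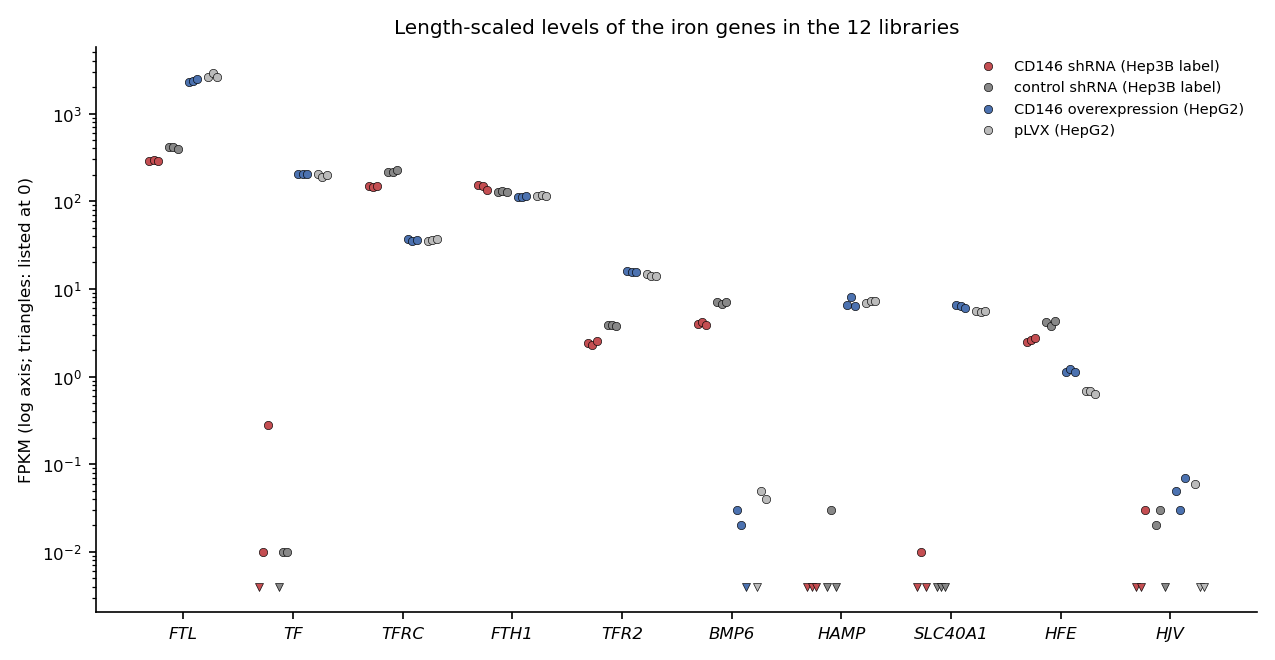
Deposited FPKM (log axis; triangles at the bottom mark libraries listed at 0) of the 10 iron genes in the 12 libraries, with 3 points a group. FTL is the highest gene in all 4 groups, at 289 and 409 FPKM on average in CD146 shRNA and control shRNA libraries and at 2369 and 2710.0 FPKM in CD146 overexpression and pLVX libraries. FTH1 is shown as deposited and may be too low, because BEST1 overlaps its exons.

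The control groups of the 2 lines were compared first. Of all 18870 genes tested, 83.2% were called by edgeR's quasi-likelihood test at a Benjamini-Hochberg adjusted p under 0.05, 39.7% higher and 43.4% lower. Of the members read in both lines, TFR2, FTL and FTH1 were called higher in HepG2 pLVX than in control shRNA libraries. TFRC and HFE were called lower, and the direction of FTH1 depended on the scaling. The share of calls that were higher was 47.8% over all genes, and 36.4% when libraries were scaled by their totals alone, a scaling that moved the median log2 difference of all genes to -0.39, against -0.08 with TMM. TF, SLC40A1, HAMP and BMP6 passed the filter on low counts only through the line where they are high, so their calls were bound to differ. They are left out of the calls above and given as ratios of counts.
TF, the plasma iron carrier that hepatocytes secrete, had 67824, 82935 and 72461 counts in pLVX libraries, against 2, 2 and 3 counts in control shRNA libraries. The ratio per effective library size was 42980 with a 95% counting interval of 20860 to 106903.
SLC40A1, the exporter, had 300, 383 and 330 counts in pLVX libraries and 0 counts in all 3 control shRNA libraries, so it was at least 133-fold higher in pLVX, taking the floor of 3 counts per library. HAMP had 252, 346 and 290 counts in pLVX libraries, against 0, 1 and 0 counts in control shRNA libraries, a ratio of 1197 with a counting interval of 214 to 47326. BMP6, a ligand that liver endothelial cells supply in the body, had 0, 3 and 2 counts in pLVX libraries, against 447, 351 and 449 counts in control shRNA libraries, and the control shRNA level was 185 times the pLVX level (counting interval 79.1 to 571). These intervals cover counting error only.
Thus the hormone, the exporter it binds and the plasma carrier were read in HepG2, and the BMP ligand in the libraries labelled Hep3B.

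Among the members present in both lines, TFRC averaged 704 ± 13.8 CPM in pLVX libraries and 3459 ± 123 CPM in control shRNA libraries (SD, n = 3 each), a log2 difference of -2.30 ± 0.04 (SE; edgeR adjusted p = 7.2e-48). TFR2, its paralog and an iron sensor in hepatocytes, went the other way, at 81.7 ± 2.64 CPM in pLVX and 17.6 ± 0.186 CPM in control shRNA libraries (SD, n = 3 each), a log2 difference of 2.21 (edgeR adjusted p = 8.5e-39). HFE, an MHC class I-like protein that binds TFRC, averaged 4.28 ± 0.193 CPM in pLVX and 21.0 ± 1.53 CPM in control shRNA libraries (SD, n = 3 each), a log2 difference of -2.29 (edgeR adjusted p = 3.9e-26).
TFRC was thus lower and TFR2 higher in HepG2 pLVX than in control shRNA libraries.
FTL averaged 2653 ± 182 CPM in pLVX and 322 ± 11.2 CPM in control shRNA libraries (SD, n = 3 each), a log2 difference of 3.04 ± 0.05 (SE; edgeR adjusted p = 9.2e-52). FTH1 was called higher in pLVX by 0.17 ± 0.04 on the log2 scale (SE; edgeR adjusted p = 1.4e-04), but lower by library totals alone (-0.15) and by limma on FPKM (-0.15), so its direction between lines is a matter of scaling.

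Within the libraries labelled Hep3B, CD146 shRNA was set against control shRNA to ask which members moved when CD146 was reduced. All 6 members tested were called by edgeR, 5 lower and 1 higher, in a comparison where 55.3% of the 16968 genes tested were called, 26.8% higher and 28.5% lower. The CPM values of the groups did not overlap for any of the 6, as for 59.8% of all genes tested. The median log2 fold change was -0.58 over the 6 members and 0.00 over all genes, whose median absolute log2 fold change was 0.29. TF, SLC40A1, HAMP and HJV had counts too low for the filter and were not tested.

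TFRC, which brings in transferrin-bound iron, had 2382, 2342 and 2412 CPM in CD146 shRNA libraries, against 3349.7, 3435 and 3592 CPM in control shRNA libraries. Every CD146 shRNA library was below every control shRNA library, and the log2 fold change was -0.54 ± 0.04 (SE; edgeR adjusted p = 4.1e-14), which is 0.687 of the control level. TFR2 had 11.2, 10.7 and 11.99 CPM in CD146 shRNA libraries, against 17.6, 17.8 and 17.5 CPM in control shRNA libraries. The groups were again apart, with a log2 fold change of -0.65 ± 0.09 (SE; edgeR adjusted p = 5.7e-08).
TF, the ligand of both receptors, had 2, 4 and 103 counts in CD146 shRNA libraries and 2, 2 and 3 counts in control shRNA libraries. The high value is that of CD146 shRNA replicate 3, the library with hepatocyte transcripts. Its shares of the mean HepG2 level ran from 0.0659% for FGB to 0.117% for APOA1 over the hepatocyte markers other than TTR. TTR, at 0.420%, was lower in that library than in CD146 shRNA replicates 1 and 2. The 103 TF counts are 0.119% of the mean HepG2 level of TF in CPM, just above the range without TTR. At that share SLC40A1 and HAMP would have had 0.492 and 0.399 counts, too few to be told from the 0 that each had in that library. The source of these counts was not tested, and no fold change is given for TF here.

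The ferritin subunits moved in opposite directions. FTH1, the subunit with ferroxidase activity, had 278, 276 and 252 CPM in CD146 shRNA libraries, against 229, 241 and 228 CPM in control shRNA libraries. Its lowest CD146 shRNA library lay above its highest control shRNA library, and it rose by 0.21 ± 0.04 on the log2 scale (SE; edgeR adjusted p = 7.4e-05). FTL, the subunit that aids iron mineralisation, had 228, 242 and 231 CPM in CD146 shRNA libraries, against 328, 328 and 309 CPM in control shRNA libraries.
FTL was lower in all 3 CD146 shRNA libraries than in any control shRNA library, with a log2 fold change of -0.46 ± 0.04 (SE; edgeR adjusted p = 2.5e-12). Both genes carry the 5′ UTR element printed above.
FTH1 is the less certain of the 2, because 62.4% of its exon bases are overlapped on the other strand by BEST1, and the strand setting of the counting is not given in the sources used here. BEST1 summed to 54 counts over the 3 CD146 shRNA libraries and 10 over the 3 control shRNA libraries, against at least 3656 counts of FTH1 in any one of these 6 libraries. These BEST1 counts do not show how many reads in the shared bases were given to neither gene. That loss was not tested. The 25 annotated FTH1 pseudogenes held 1.5 to 2.90% of the FTH1 counts and the 16 FTL pseudogenes 0.313 to 1.11% of the FTL counts over the 12 libraries.

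A ratio of the 2 subunits within a library does not depend on how libraries are scaled. FTL over FTH1 in FPKM was 1.89, 2.01 and 2.10 in CD146 shRNA libraries, against 3.30, 3.13 and 3.12 in control shRNA libraries. The groups did not overlap, and log2 of FTH1 over FTL was 0.67 higher with CD146 shRNA. In HepG2, FTL over FTH1 was 20.6, 21.0 and 21.3 in CD146 overexpression libraries, against 22.6, 24.7 and 22.7 in pLVX libraries, a difference in log2 of FTH1 over FTL of 0.15.
The exact two-sided permutation test gave p = 0.1 in each line, the smallest that 3 against 3 libraries can give, so this design could not reach 0.05. The ratio of FTH1 to FTL transcripts was thus higher both with less CD146 in one line and with more CD146 in the other. Between the control groups the gap was far wider, at 23.3 ± 1.18 in pLVX and 3.18 ± 0.0993 in control shRNA libraries (FTL over FTH1 in FPKM, SD, n = 3 each). All these ratios take FTH1 as counted, although BEST1 overlaps 62.4% of its exon bases and no counted gene overlaps those of FTL. Their size may thus be too high in every group, which was not tested. Loss of reads shared with the pseudogenes of either subunit was not tested either, so the direction of any error in the ratios is not settled.

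**Figure D3:**
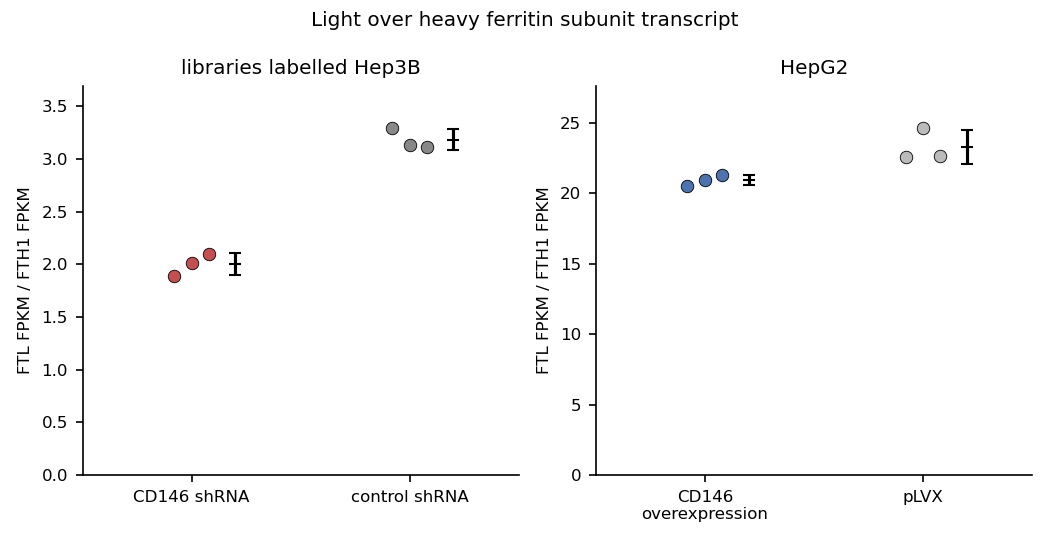
FTL FPKM divided by FTH1 FPKM (y axes from 0, a scale of its own for each line) in each library, with mean ± SD of 3 libraries beside the points. The ratio averages 2.0 with CD146 shRNA and 3.18 with control shRNA, and 20.9 with CD146 overexpression and 23.3 with pLVX, and within each line no library of one group reaches the other group. FTH1 is taken as counted, and its overlap with BEST1 may make the ratios too high. Loss of reads shared with pseudogenes of either subunit was not tested.

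Of the members that act upstream of hepcidin, BMP6 and HFE also fell. BMP6 had 13.7, 14.8 and 13.6 CPM in CD146 shRNA libraries, against 24.0, 23.1 and 24.4 CPM in control shRNA libraries. All 3 CD146 shRNA libraries were below the control shRNA libraries, with a log2 fold change of -0.76 ± 0.08 (SE; edgeR adjusted p = 9.7e-11), the largest among the members here. HFE had 12.7, 13.9 and 14.6 CPM in CD146 shRNA libraries, against 21.3, 19.3 and 22.3 CPM in control shRNA libraries.
The HFE groups did not overlap, and its log2 fold change was -0.62 ± 0.08 (SE; edgeR adjusted p = 6.2e-08). HJV, the BMP co-receptor, had 0, 0 and 1 counts in CD146 shRNA libraries and 1, 1 and 0 counts in control shRNA libraries, too few to compare. HAMP itself had 0 counts in all 3 CD146 shRNA libraries and 0, 1 and 0 counts in the control shRNA libraries, so a change in the hormone's transcript was not detectable at this depth.
Other markers moved in the same comparison. The 4 endothelial markers (PECAM1, VWF, CDH5 and KDR) summed to 21.7 to 22.5 CPM in CD146 shRNA libraries and 2.58 to 3.15 CPM in control shRNA libraries, with CDH5 at 18.4 CPM on average in CD146 shRNA and 0.688 CPM in control shRNA libraries and KDR at 0 in all of them. The 4 fibroblast and stellate markers summed to 87.9 to 106 CPM in CD146 shRNA libraries and 53.7 to 62.1 CPM in control shRNA libraries, 3 of the 4 being called higher. Among these 3, COL1A2 was uneven, with 148, 150 and 19 counts in CD146 shRNA replicates 1 to 3, against 3 counts in each control shRNA library. The 4 cholangiocyte markers (KRT7, KRT19, SOX9 and EPCAM) summed to 146 to 151 CPM in CD146 shRNA libraries and 169.7 to 184 CPM in control shRNA libraries, and of 3 tested KRT7 (log2 fold change -0.36) and SOX9 (-1.34) were called lower. Their part in the changes of the iron genes was not tested.

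Within HepG2, CD146 overexpression was set against pLVX. Of the 8 members tested, 1 rose, 2 fell and 5 did not pass edgeR's test, in a comparison where 19.8% of 15300 genes were called, 9.55% higher and 10.3% lower. The median log2 fold change was -0.06 over the 8 members and 0.00 over all genes, whose median absolute log2 fold change was 0.12. Of all genes called, 48.1% were higher, a share that became 79.5% with library totals alone and 76.3% with limma on log2(FPKM + 0.1), so small changes in HepG2 depend on the scaling.
HFE was the member that rose. It had 6.91, 7.39 and 6.95 CPM in CD146 overexpression libraries, against 4.34, 4.43 and 4.06 CPM in pLVX libraries. The lowest CD146 overexpression library was above the highest pLVX library, and the log2 fold change was 0.72 ± 0.15 (SE; edgeR adjusted p = 2.2e-04), or 1.65 times the pLVX level.
FTL fell, with 2151, 2179 and 2301 CPM in CD146 overexpression libraries, against 2553, 2863 and 2544 CPM in pLVX libraries. The groups did not overlap, and the log2 fold change was -0.27 ± 0.03 (SE; edgeR adjusted p = 2.6e-09), but limma on log2(FPKM + 0.1) gave -0.19 with an adjusted p of 0.054. FTH1 had 241, 239 and 248 CPM in CD146 overexpression libraries, against 259.9, 267 and 258 CPM in pLVX libraries.
That FTH1 difference was -0.11 ± 0.03 on the log2 scale (SE; edgeR adjusted p = 0.013). The call was lost without CD146 overexpression replicate 1 (edgeR adjusted p = 0.053), without pLVX replicate 2 (edgeR adjusted p = 0.073) and with library totals alone (-0.04, edgeR adjusted p = 0.44). It was also lost when fitted with all 12 libraries (edgeR adjusted p = 0.067). Limma did not call FTH1 on log2(FPKM + 0.1) (adjusted p = 0.34) or log2(FPKM + 1) (adjusted p = 0.33).

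The other 5 members did not pass. TF had 5642, 5633 and 5658 CPM in CD146 overexpression libraries, against 6007, 5566 and 5769 CPM in pLVX libraries. Its groups overlapped, with a log2 fold change of -0.04 ± 0.03 (SE; edgeR adjusted p = 0.41). TFRC had 689, 654 and 667 CPM in CD146 overexpression libraries, against 694, 699 and 719.8 CPM in pLVX libraries.
The TFRC groups did not overlap, as for 33.1% of all genes tested, yet its log2 fold change of -0.07 ± 0.03 did not pass (SE; edgeR adjusted p = 0.08). TFR2 had 85.7, 84.9 and 85.7 CPM in CD146 overexpression libraries, against 84.8, 80.4 and 80.0 CPM in pLVX libraries, and its log2 fold change was 0.06 ± 0.05 (SE; edgeR adjusted p = 0.38). TFR2 passed at 0.14 with library totals alone (edgeR adjusted p = 0.026).
SLC40A1 had 29.2, 28.5 and 27.5 CPM in CD146 overexpression libraries, against 26.6, 25.7 and 26.3 CPM in pLVX libraries. These groups did not overlap either, and the log2 fold change of 0.11 ± 0.07 did not pass (SE; edgeR adjusted p = 0.28). HAMP had 19.97, 24.6 and 19.6 CPM in CD146 overexpression libraries, against 22.3, 23.2 and 23.1 CPM in pLVX libraries.
HAMP was both highest and lowest in the CD146 overexpression group, and its log2 fold change was -0.11 ± 0.08 (SE; edgeR adjusted p = 0.39). BMP6 was at 0 to 2 counts with CD146 overexpression and 0 to 3 counts with pLVX, and HJV was at 1 to 3 counts and 0 to 2 counts in the same groups. Neither was tested.
The 8 hepatocyte markers summed to 52368 to 52976 CPM in CD146 overexpression libraries and 61055 to 63473 CPM in pLVX libraries, 5 of the 8 being called lower. The 4 cholangiocyte markers summed to 519 to 535 CPM in CD146 overexpression libraries and 392 to 409 CPM in pLVX libraries. Their part in the FTL and HFE differences was not tested.

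**Figure D4:**
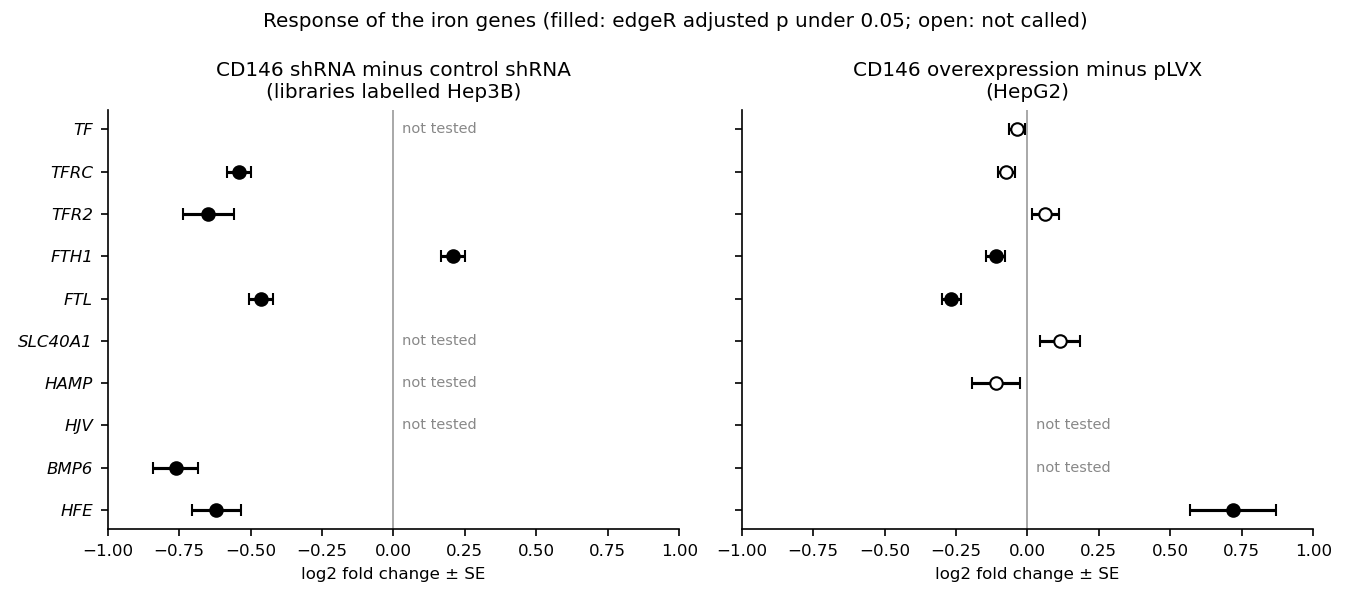
Log2 fold change ± SE (x axis) of each iron gene for CD146 shRNA minus control shRNA (left panel) and CD146 overexpression minus pLVX (right panel); filled points have an edgeR adjusted p under 0.05, open points do not, and genes without enough counts are marked as not tested. The 6 tested genes in the left panel lie between -0.76 and 0.21, and HFE at 0.72 is the only filled point above 0 in the right panel.

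Since one line lost CD146 and the other gained it, both responses were given the sign of more CD146. Their difference was tested in 1 model over the 12 libraries. The steps in MCAM were unequal, with log2 fold changes of -2.25 for CD146 shRNA and 6.37 for CD146 overexpression. They also started from different levels, and the contrast does not adjust for either. The contrast is CD146 overexpression minus pLVX, less control shRNA minus CD146 shRNA. Of the 5 members read in both lines, TFRC, TFR2 and FTL had a lower response in HepG2 and FTH1 and HFE did not pass, where 36.4% of 18870 genes were called, 17.2% higher and 19.2% lower. TF, SLC40A1, HAMP and BMP6 were also fitted, but each is at or near 0 in one line and has no response to measure there, so their values say nothing about a difference in response.
TFRC differed by -0.61 ± 0.06 on the log2 scale (SE; edgeR adjusted p = 1.5e-13), TFR2 by -0.58 ± 0.09 (SE; edgeR adjusted p = 7.9e-07) and FTL by -0.73 ± 0.06 (SE; edgeR adjusted p = 9.3e-15). FTL thus went down with more CD146 in HepG2 and was lower with less CD146 in the libraries labelled Hep3B, whereas TFRC and TFR2 were called with CD146 shRNA and not with CD146 overexpression, and the difference in their responses passed the test. HFE went with CD146 in both lines, being higher with more and lower with less, and its responses differed by 0.10 ± 0.17 (SE; edgeR adjusted p = 0.69). The fitted value of TF was 3.82 ± 0.84 (SE; edgeR adjusted p = 1.9e-04), which rests on CD146 shRNA replicate 3 and became 0.18 without that library (edgeR adjusted p = 0.92).

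The 3 genes with the most TFRC-like pattern among the 9408 at or above 5 CPM in every group were found by Pearson correlation of log2 CPM, centred within each line, over the 12 libraries. TMEM245, a transmembrane protein gene, had r = 0.991, the magnesium transporter gene NIPA1 r = 0.991 and the deubiquitinase gene USP13 r = 0.990. The 12 libraries share 2 lines and 2 perturbations, so these values describe the step between CD146 shRNA and control shRNA. TMEM245 averaged 169 ± 1.62 CPM in CD146 shRNA and 394 ± 11.3 CPM in control shRNA libraries (SD, n = 3 each), and 212 ± 5.86 CPM in CD146 overexpression and 223 ± 5.11 CPM in pLVX libraries (SD, n = 3 each).

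The other iron genes were taken from 85 genes in 7 lists by role. In the libraries labelled Hep3B 76 of them were tested with CD146 shRNA, of which 11 rose, 36 fell and 29 did not pass, a called share of 61.8% beside the 55.3% of all genes. Their median log2 fold change was -0.16, and that of all genes tested was 0.00. In HepG2, 76 were tested with CD146 overexpression, of which 12 rose, 9 fell and 55 did not pass, a called share of 27.6% beside the 19.8% of all genes, with a median of 0.00.

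Among the 9 genes of uptake, ferrireduction and iron outside transferrin, 7 were tested with CD146 shRNA, 4 fell and 1 rose. SLC11A2 (DMT1), which moves iron out of the endosome, averaged 115 ± 1.92 CPM in CD146 shRNA and 178 ± 2.2 CPM in control shRNA libraries (SD, n = 3 each; log2 fold change -0.63, edgeR adjusted p = 5.5e-16). STEAP3, the endosomal ferrireductase, averaged 79.2 ± 6.02 CPM in CD146 shRNA and 106 ± 5.71 CPM in control shRNA libraries (SD, n = 3 each; log2 fold change -0.43, edgeR adjusted p = 4.8e-09).
SLC39A14 (ZIP14), which takes up iron not bound to transferrin, fell as well (log2 fold change -0.34, edgeR adjusted p = 9.4e-09). SCARA5, described as a ferritin receptor in mouse, rose by 0.22 (edgeR adjusted p = 0.0021), a call lost without control shRNA replicate 3 (0.14, edgeR adjusted p = 0.071) and by limma on FPKM (adjusted p = 0.12). In HepG2, 6 genes of the list were tested with CD146 overexpression, 2 rose and 1 fell.
The metalloreductase gene STEAP2 averaged 7.78 ± 0.258 CPM in CD146 overexpression and 3.41 ± 0.961 CPM in pLVX libraries (SD, n = 3 each; log2 fold change 1.16, edgeR adjusted p = 1.2e-07). MELTF, encoding the membrane iron-binding protein melanotransferrin, rose by 0.39 (edgeR adjusted p = 4.0e-05), and SLC39A14 fell to 993 ± 20.4 CPM in CD146 overexpression libraries, against 1182 ± 39.3 CPM in pLVX libraries (SD, n = 3 each; log2 fold change -0.25, edgeR adjusted p = 1.6e-09). SLC39A14 was lower in both perturbed groups than in their controls.

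The iron regulatory proteins and genes that handle ferritin iron had 6 of 7 tested with CD146 shRNA, of which 4 fell and 1 rose. ACO1, which encodes iron regulatory protein 1, averaged 43.7 ± 1.66 CPM in CD146 shRNA and 56.0 ± 2.96 CPM in control shRNA libraries (SD, n = 3 each; log2 fold change -0.36, edgeR adjusted p = 9.7e-07). FBXL5, the ubiquitin ligase subunit that removes iron regulatory proteins when iron is plentiful, rose by 0.27 (edgeR adjusted p = 9.5e-04). The iron chaperone gene PCBP1 fell by 0.24 on the log2 scale, with 52.2% of its exon bases overlapped by its antisense gene, and PCBP2 fell by 0.14, with an overlap of 32.7%.
With CD146 overexpression, IREB2, encoding iron regulatory protein 2, averaged 175 ± 6.89 CPM, against 155 ± 4.51 CPM in pLVX libraries (SD, n = 3 each; log2 fold change 0.18, edgeR adjusted p = 3.8e-04). Of 6 genes tested there, 2 rose and 1 fell. NCOA4, the receptor that carries ferritin to lysosomes, fell by 0.10 (edgeR adjusted p = 0.011) and PCBP1 rose by 0.16 (edgeR adjusted p = 0.017). Both calls were lost in single leave-outs, NCOA4 without pLVX replicate 3 or CD146 overexpression replicate 2 and PCBP1 without pLVX replicate 2 or 3 or CD146 overexpression replicate 3. The NCOA4 call was also lost with library totals alone (-0.03, edgeR adjusted p = 0.49), by limma on both FPKM scales and when fitted with all 12 libraries (edgeR adjusted p = 0.058). DESeq2 did not call PCBP1 (adjusted p = 0.092), and its groups overlapped in CPM.
In the list of other transcripts with an iron responsive element, 2 of 5 tested fell with CD146 shRNA, among them the hypoxia-inducible factor gene EPAS1 (log2 fold change -0.22), and none of 5 passed with CD146 overexpression.

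In the hepcidin control list, 23 of 25 genes were tested with CD146 shRNA, of which 6 rose and 11 fell. BMP2, the other main BMP ligand for hepcidin, averaged 66.1 ± 2.23 CPM in CD146 shRNA and 24.9 ± 1.67 CPM in control shRNA libraries (SD, n = 3 each; log2 fold change 1.40, edgeR adjusted p = 3.6e-22). BMP2 and BMP6 thus moved in opposite directions in the same libraries. SMAD1, a transcription factor that BMP receptors phosphorylate, averaged 6.56 ± 0.623 CPM in CD146 shRNA and 11.5 ± 1.19 CPM in control shRNA libraries (SD, n = 3 each; log2 fold change -0.81, edgeR adjusted p = 1.3e-07).
SMAD5, a second such factor, fell too (log2 fold change -0.36, edgeR adjusted p = 1.3e-07), while IL6ST, the signal-transducing subunit of the IL-6 receptor, rose (log2 fold change 0.33).
In HepG2, 22 were tested, of which 7 rose and 4 fell. TMPRSS6, the protease that lowers hepcidin by cleaving hemojuvelin, averaged 18.1 ± 0.588 CPM in CD146 overexpression and 10.1 ± 2.37 CPM in pLVX libraries (SD, n = 3 each; log2 fold change 0.86, edgeR adjusted p = 6.7e-09). FURIN, a proprotein convertase that processes hepcidin, rose by 0.27 (edgeR adjusted p = 2.3e-04), STAT3 rose by 0.17 (edgeR adjusted p = 4.7e-04) and IL6ST fell by 0.20 on the log2 scale (edgeR adjusted p = 4.2e-06). The IL6ST call was lost with limma on log2(FPKM + 0.1) (-0.13, adjusted p = 0.084) and on log2(FPKM + 1) (-0.13, adjusted p = 0.085). The HAMP transcript did not pass there.

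The promoter of HAMP is given because BMP and IL-6 signals meet on it. The 250 bases before the RefSeq start were searched on both strands for GGCGCC, the core of the known BMP responsive element, and TTCNNGGAA, a STAT site. The bases from 145 to 36 before that start (GRCh38.p14, chr19:35282383-35282492, plus strand) are printed. Capitals mark the motif matches, which do not overlap.
HAMP: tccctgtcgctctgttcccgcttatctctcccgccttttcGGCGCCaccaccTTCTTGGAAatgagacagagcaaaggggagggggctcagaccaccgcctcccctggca
The matches start at -105 and -93. Among the other members with a promoter to search, TF and TFRC held GGCGCC and HJV held TTCNNGGAA. Of 27305 RefSeq promoters, 16.11% hold the first motif in the 250 bases before the start, 3.98% the second and 0.43% both.

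Of the 17 genes of heme synthesis, transport and breakdown, all were tested with CD146 shRNA, 9 fell and 1 rose. FECH, ferrochelatase, which inserts iron into protoporphyrin, averaged 11.2 ± 0.395 CPM in CD146 shRNA and 24.6 ± 0.339 CPM in control shRNA libraries (SD, n = 3 each; log2 fold change -1.13, edgeR adjusted p = 4.1e-15). ALAS1, the first enzyme of the pathway, fell by 0.26 on the log2 scale (edgeR adjusted p = 1.2e-05), and the transporter gene FLVCR2 rose by 0.58 (edgeR adjusted p = 7.0e-06), though 26.5% of its exon bases overlap other genes. PGRMC1, a heme-binding membrane protein gene, fell by 0.23. With CD146 overexpression, 1 of 17 passed, PGRMC1, at 136 ± 3.81 CPM in CD146 overexpression and 179 ± 8.09 CPM in pLVX libraries (SD, n = 3 each; log2 fold change -0.40, edgeR adjusted p = 7.8e-12).
The mitochondrial iron and iron-sulfur cluster list had 6 lower and 2 higher of 15 tested with CD146 shRNA. The cysteine desulfurase gene NFS1 (log2 fold change -0.27) and the transporter gene ABCB10 (-0.31) were among those that fell. With CD146 overexpression NFS1 was the 1 of 15 that passed, at 51.0 ± 1.60 CPM, against 60.6 ± 5.08 CPM in pLVX libraries (SD, n = 3 each; log2 fold change -0.25, edgeR adjusted p = 7.4e-04). That call was lost with limma on log2(FPKM + 0.1) (-0.17, adjusted p = 0.10) and on log2(FPKM + 1) (-0.16, adjusted p = 0.11).
Of 6 ferroxidase and plasma carrier genes, 3 were tested with CD146 shRNA and none passed. In HepG2, 5 were tested, and haptoglobin and hemopexin, which bind hemoglobin and heme in plasma, moved apart. HP averaged 186 ± 5.22 CPM in CD146 overexpression and 255 ± 6.15 CPM in pLVX libraries (SD, n = 3 each; log2 fold change -0.46, edgeR adjusted p = 1.9e-15), and HPX averaged 18.7 ± 1.28 CPM in CD146 overexpression and 12.3 ± 0.397 CPM in pLVX libraries (SD, n = 3 each; log2 fold change 0.60, edgeR adjusted p = 1.3e-06).

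**Figure D5:**
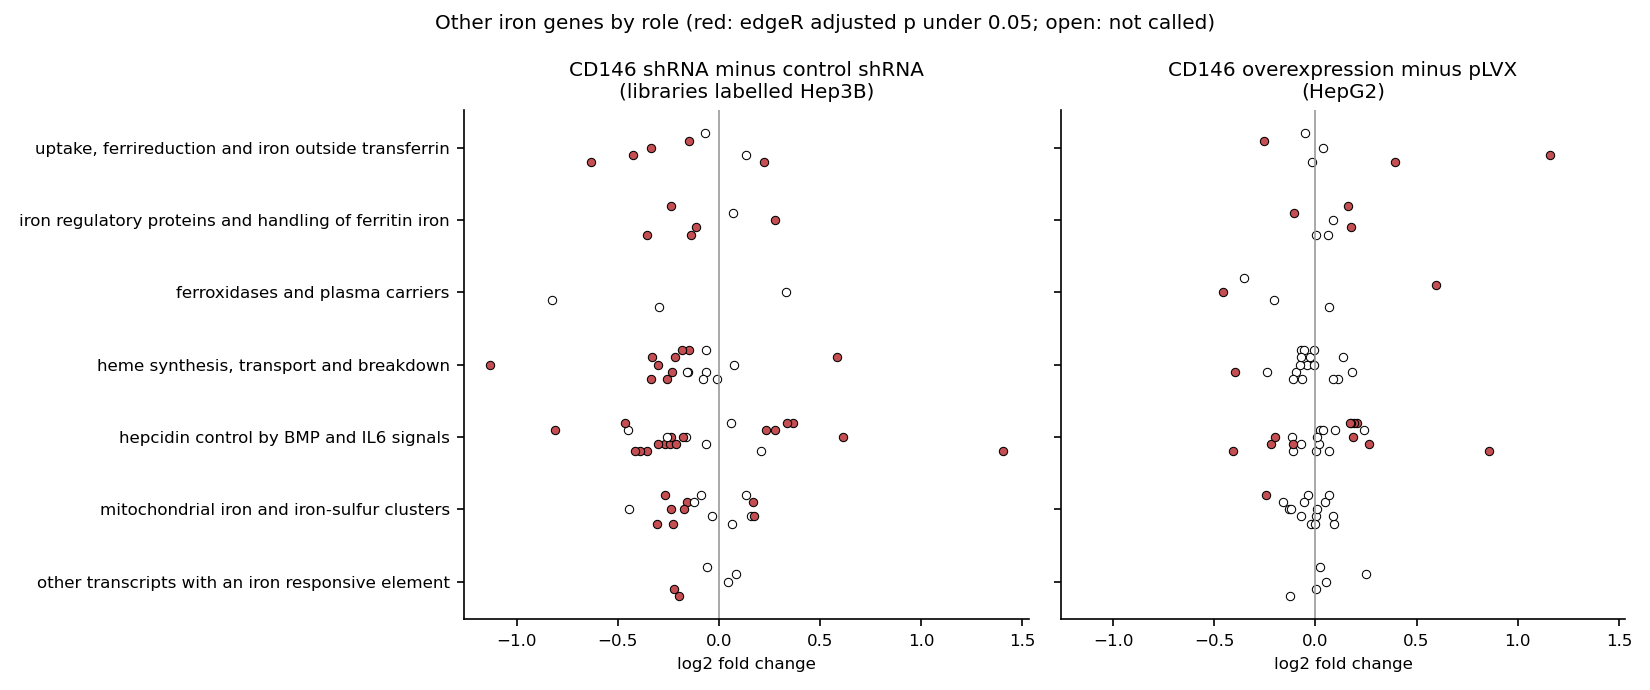
Log2 fold change (x axis, the same in both panels) of the other iron genes, 1 point a gene, by role list, for CD146 shRNA minus control shRNA (left panel) and CD146 overexpression minus pLVX (right panel). Red points have an edgeR adjusted p under 0.05 (47 of 76 on the left, 21 of 76 on the right) and open points do not.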

How the data were processed

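Poly(A) RNA of 12 libraries was sequenced, and the authors deposited 1 table of read counts per gene and 1 table of FPKM. Tools named by the submitters' processing notes are HISAT2 (version 2.2.1), HTSeq (version 0.6.1) and cutadapt (version 1.9.1), and the build, annotation and strand setting are not given in the sources used here. Deposited FPKM were used to order genes by level, and they were proportional to the deposited counts within each gene to within 0.609%. Counts were tested with edgeR 4.0.16 in R 4.3.3 (TMM, filterByExpr, quasi-likelihood F test, two-sided, Benjamini-Hochberg over all genes tested, threshold 0.05), each line being fitted alone, and all 12 libraries together for comparisons across lines. SEs were derived from each fold change and its F statistic. DESeq2 1.42.0, limma 3.58.1 on log2(FPKM + 0.1) and log2(FPKM + 1), other scalings, no filter, a replicate block and leaving out each library were alternatives. The edgeR fit was also run on simulated data with far fewer changed genes than were called here. That run does not show how the fit does where so many genes differ.

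The members and lists were chosen with earlier results of these data known. All 10 members are named; from each role list, up to 4 called genes were named, by smallest adjusted p and with 5 CPM or more in the group where they are higher, with exceptions stated, and some genes the rule names are not reported here. A supplied table of gene names gave a symbol to 61757 of the 61806 Ensembl IDs, and positions come from GENCODE v29 (GRCh38). Library totals were 14116977 to 18129816 counts with CD146 shRNA, 13777262 to 16678519 with control shRNA, 13309430 to 16862507 with CD146 overexpression and 12772991 to 16735662 with pLVX. Chi-square per gene between replicates of one group was 1.74 to 3.93, above sampling noise, so none was counted as a duplicate.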

Additional observations from a re-analysis of the deposited data

Results flagged for a closer look

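A test of the difference between the lines in the response to more CD146 passed for TFRC, TFR2, FTL and TF (edgeR, all 12 libraries, HepG2 minus the Hep3B label, log2). TFRC differed by -0.61, TFR2 by -0.58 and FTL by -0.73, and each kept its direction and its call under the 19 alternatives run. The steps in MCAM differed in size between the lines, and the contrast does not adjust for that. TF differed by 3.82, a value that rests on the 103 TF counts of CD146 shRNA replicate 3, and since TF is at or near 0 in the other libraries labelled Hep3B it says nothing about a difference in response. Groups of 3 libraries are too small for a test of single outlying libraries.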

How the results depend on the processing

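With CD146 shRNA the calls of TFRC, TFR2, FTH1, FTL, BMP6 and HFE kept direction and side of the threshold under all 14 alternatives. The number of members higher there was 1, and 2 with no filter on low counts and 2 when fitted with all 12 libraries, TF being added. Leaving out 1 library gave 8645 to 8894 called genes, with 1 member higher and 5 lower each time. With CD146 overexpression DESeq2 called 1839 genes, against 3037 by edgeR, and leave-outs gave 2262 to 2675. Members higher there numbered 3 with library totals alone, 3 with limma on log2(FPKM + 0.1) and 2 with log2(FPKM + 1), with TFR2 and, in the first pair, SLC40A1 added (0.19 and 0.18, adjusted p = 0.049 each by edgeR and limma). Members lower there numbered 1 with library totals alone, 0 and 0 with limma, 1 when fitted with all 12 libraries, and 1 to 2 in leave-outs. HFE kept its call under all 14. For the difference between lines, members higher numbered 0 by DESeq2, where the adjusted p of TF was not given, and 0 by limma on log2(FPKM + 0.1). BMP6, near 0 in HepG2, gained a call there by limma on log2(FPKM + 0.1) (-0.93, adjusted p = 0.0069) and log2(FPKM + 1) (-0.69, adjusted p = 1.5e-05), as did SLC40A1, near 0 with the Hep3B label, on log2(FPKM + 1) (0.16, adjusted p = 0.048). Without CD146 shRNA replicate 3 the 1 member higher was FTH1 (0.14, edgeR adjusted p = 0.046). Leave-outs gave 6251 to 6631 called genes for that difference and 15332 to 16063 between control groups, with members higher at 1 and 6 and members lower at 3 and 3. The member counts between control groups include TF, SLC40A1, HAMP and BMP6, whose calls were bound to differ. In the other leave-outs for the difference, the 1 member higher was TF, which has no response to measure with the Hep3B label. FTH1 between the control groups reversed to -0.15 with library totals alone, -0.15 with limma on log2(FPKM + 0.1) and -0.15 on log2(FPKM + 1). The cause of these changes was not tested. The log2 ferritin ratio gave 0.67 and 0.15 from counts, 0.67 and 0.16 with pseudogenes added, and 0.63 to 0.71 and 0.11 to 0.17 in leave-outs. The numbers 1 to 3 did not pair libraries (correlation of same-numbered deviations 0.03 to 0.11 with the Hep3B label and -0.05 to 0.01 in HepG2); with the replicate block 9543, 2947, 6855 and 15674 genes were called for CD146 shRNA, CD146 overexpression, the difference and the control groups, and no member's call changed. Of 532 alternative values for the other named genes 514 kept direction and call, 18 lost the call (in 6 genes, among them IL6ST and NFS1 with CD146 overexpression) and none reversed. Depth limits TF, SLC40A1, HAMP and HJV in the libraries labelled Hep3B and BMP6 and HJV in HepG2.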

Other observations

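Several of the other named iron genes were read mainly in 1 line, as were TF, SLC40A1, HAMP and BMP6. HP summed to 9899 counts in the 3 pLVX libraries and 2 in the 3 control shRNA libraries, HPX to 480 and 28, TMPRSS6 to 385 and 6, and STEAP2 to 135 and 3. The reverse held for BMP2, with 0 counts in pLVX and 1304 in control shRNA libraries, and for SCARA5, with 0 and 2999. The gene that rose most in the hepcidin control list with CD146 overexpression, TMPRSS6, and the one that rose most with CD146 shRNA, BMP2, were thus each read mainly in 1 line.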
